A study of Homo sapiens with 6 samples.

Results

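The Krüppel-like factors (KLFs) are zinc finger transcription factors. Of these, 10 were compared between macrophage-differentiated and unstimulated THP-1 cells: KLF2, KLF3, KLF4, KLF6, KLF7, KLF9, KLF10, KLF11, KLF12 and KLF13. They were taken by symbol, and all 10 were found among the 18417 genes measured, each through the brightest of its probe sets that carry only that symbol. THP-1 is a human monocytic leukaemia line. In 3 samples the cells had been differentiated with 200 nM PMA, a phorbol ester and activator of protein kinase C, over 3 days, and then left for 3 days without it. The other 3 samples were THP-1 cells not stimulated with PMA, and their time in culture is not given in the labels. Each sample gave 1 array with 1 log2 value per probe set. All samples are of the same line. The labels do not say whether replicates were separate cultures, so p-values cover the spread of these arrays alone, and that spread may be technical. The number of arrays limits the precision.

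KLF proteins bind GC-rich and CACCC-type sequences through zinc fingers at their C-terminal end, and differ in the regions before them. KLF2, KLF4, KLF6 and KLF7 carry activating regions. KLF3, KLF8 and KLF12 recruit the co-repressor CtBP, and KLF9, KLF10, KLF11 and KLF13 recruit the co-repressor SIN3A. In myeloid cells KLF4 is known as a factor that favours monocyte differentiation, KLF2 as a brake on inflammatory activation of monocytes, and KLF6 as a factor that favours inflammatory macrophage activation.

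RefSeq promoter windows (GRCh38.p14) matched 8 of the 10 genes: KLF2, KLF4, KLF6, KLF7, KLF9, KLF11, KLF12 and KLF13. The 250 bases before the transcription start are shown for KLF7 and KLF9, the members whose difference passed the test, and for KLF2, whose promoter holds a match for MEF2, a factor measured below. For KLF7, which has 4 listed starts, the first window listed is shown. Capitals mark matches on either strand for the GC box GGGCGG, for CACCC, and for the MEF2 site.
KLF2 (chr19:16324576-16324825, + strand): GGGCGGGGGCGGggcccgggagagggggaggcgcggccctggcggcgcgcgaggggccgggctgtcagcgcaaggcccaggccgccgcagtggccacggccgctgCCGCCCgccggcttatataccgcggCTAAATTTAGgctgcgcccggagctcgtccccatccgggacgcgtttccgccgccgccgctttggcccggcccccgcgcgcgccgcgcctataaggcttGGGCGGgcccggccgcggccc
KLF7 (chr2:207165949-207166198, - strand): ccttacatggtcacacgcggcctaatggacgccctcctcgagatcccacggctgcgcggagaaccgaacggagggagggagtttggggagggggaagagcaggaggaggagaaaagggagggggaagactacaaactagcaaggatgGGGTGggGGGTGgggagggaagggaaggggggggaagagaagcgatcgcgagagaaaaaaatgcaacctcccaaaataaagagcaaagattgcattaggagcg
KLF9 (chr9:70414658-70414907, - strand): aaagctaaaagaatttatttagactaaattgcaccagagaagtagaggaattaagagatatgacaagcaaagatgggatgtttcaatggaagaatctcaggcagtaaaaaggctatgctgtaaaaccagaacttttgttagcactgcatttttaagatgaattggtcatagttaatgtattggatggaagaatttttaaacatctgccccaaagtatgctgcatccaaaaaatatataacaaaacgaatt

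The KLF2 window was 80.0% G and C, higher than 96.7% of all 35116 promoter windows, and held 4 GC boxes. Its MEF2 match lay 120 to 111 bases before the start. The printed KLF7 window was 58.0% G and C and held 2 CACCC matches and no GC box, and another of its windows held 4 GC boxes. The KLF9 window was 32.4% G and C, higher than 2.9% of windows, and none of the motifs searched was in it. The 8 matched genes had 15 windows, since a gene can have several starts. GC boxes were in 8 of the 15 windows (7 genes) and CACCC matches in 6 (4 genes). An AP-1 site (TGANTCA) was found in a window of KLF12 alone, a MEF2 site in windows of KLF2 and KLF12, and a CArG box in a window of KLF7. Of all windows, 42.6% held a GC box, 54.7% CACCC, 6.57% the AP-1 site, 2.8% the MEF2 site and 1.16% the CArG box. Motifs were searched on both strands, and a GC box and a CACCC match may overlap. These matches describe letters in the windows only.

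Correlations between the arrays are given first. Arrays of a group correlated at 0.988 to 0.995 (Pearson, all probe sets), and arrays of different groups at 0.958 to 0.968. PMA replicate 3 correlated with the other PMA arrays at 0.989 and 0.988, against 0.993 between those arrays. Unstimulated replicate 1 correlated with the other unstimulated arrays at 0.989 and 0.990, against 0.995 between those. The members and the counts of each gene list are also given without both of these arrays, a fit that leaves 2 arrays per group. Both arrays also stood apart in the members' own values, as described below, so the choice of this fit is not independent of those values. Of 6 macrophage markers 4 rose, CD14, CD163, MSR1 and APOE, and CD68 and MARCO did not pass. Of 7 monocytic lineage genes measured 4 rose, ITGAM (2.01), CSF1R (1.94), TYROBP (0.82) and FCER1G (0.49, log2 fold changes), and LYZ fell (-2.76). These 7 genes averaged 10.75 to 10.94 on the PMA arrays and 10.38 to 10.53 on the unstimulated arrays. Markers of T cells, in which KLF2 and KLF13 are also expressed, averaged 4.82 to 5.21 on PMA arrays and 4.85 to 5.01 on unstimulated arrays, and none of 5 passed the test. Array lower quartiles were 4.46 to 4.57. Of 4 B cell markers, CD22 rose (3.60 ± 0.58) and CD79A fell (-0.36 ± 0.11), on the log2 scale described next. No marker of 5 endothelial genes passed, while 1 of 5 epithelial genes (KRT18, lower) and 1 of 5 fibroblast genes (PDGFRB, higher) did.

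KLF9 rose, KLF7 fell, and no KLF member differed by 2-fold. In limma with Benjamini-Hochberg adjustment over all genes, 2 of 10 members passed an adjusted p of 0.05. Of all genes tested 26.4% did (13.2% higher and 13.2% lower). Of all calls 50.1% were higher, and 61.8% were with each array centred on its median. The other 8 did not pass. All 10 members stayed in when genes below the median level were left out. The same 2 of 10 passed there, where 39.5% of the 9208 genes kept did. The share of all genes is thus a low background for these members. The log2 fold changes of the members, PMA minus unstimulated, ran from -0.64 to 0.69. Their median was -0.11 (median size 0.40), beside -0.03 (median size 0.18) over all genes. The groups did not overlap for 3 members, KLF3, KLF7 and KLF9, where 41.2% of all genes did not overlap. In the following, a value after ± is the SD of log2 values over n = 3 arrays where it follows a mean, and the standard error of the limma fit where it follows a log2 fold change.

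**Figure D1:**
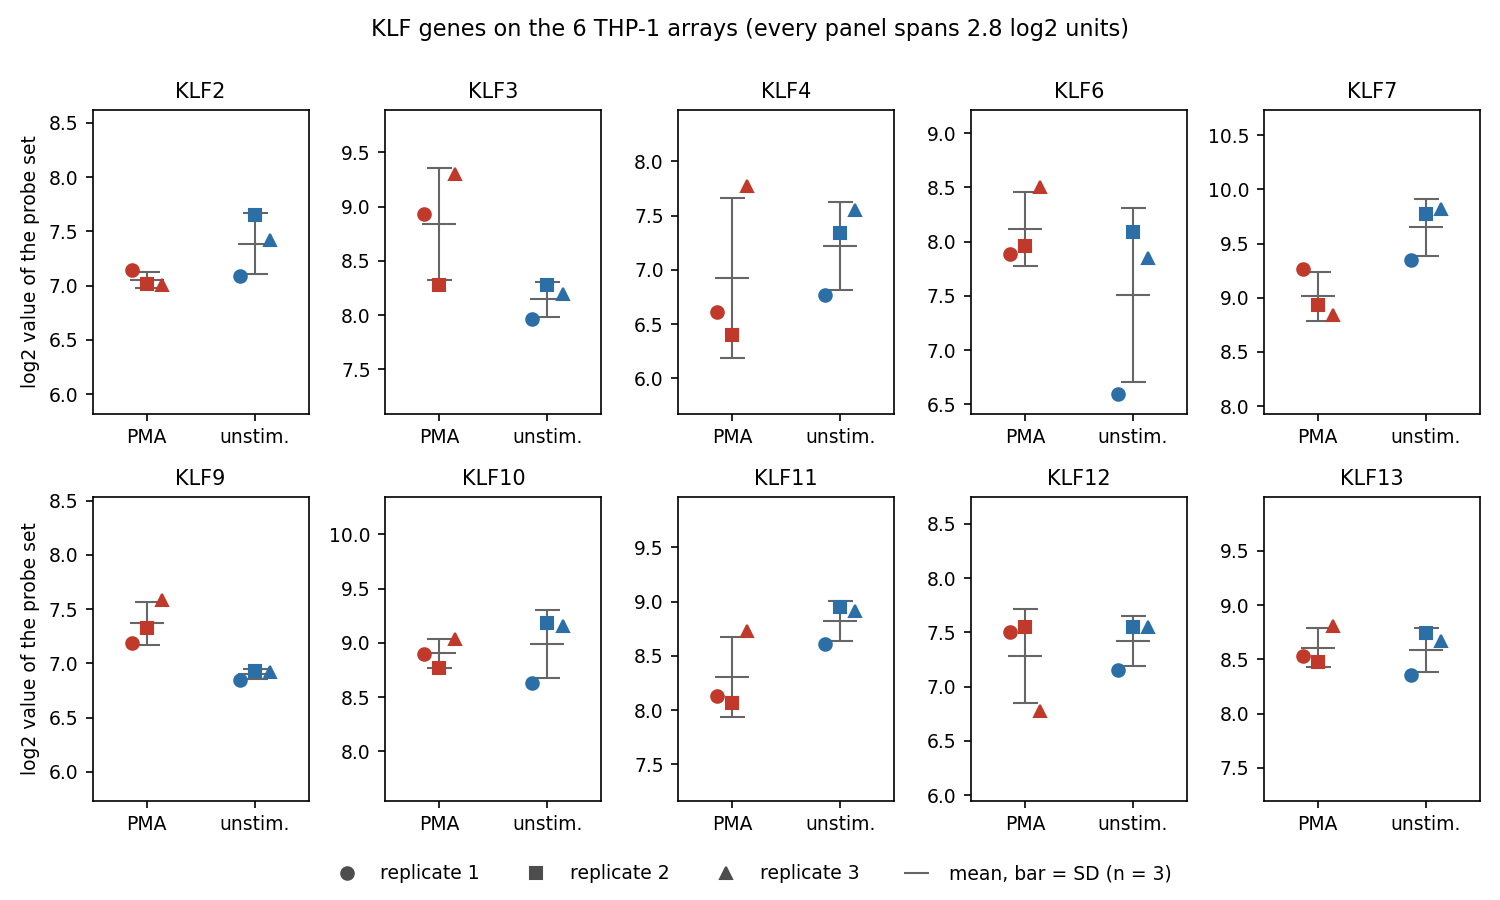
Log2 values of the 10 KLF genes on each array, PMA-differentiated cells at left and unstimulated cells at right in each panel. Symbols are arrays, the horizontal mark is the group mean and the bar its SD (n = 3). KLF3, KLF7 and KLF9 show no overlap between groups, and unstimulated replicate 1 is the lowest unstimulated array in every panel.

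Among the members with activating regions, KLF7 fell. KLF7 is known for its part in neuronal outgrowth and in lymphoid leukaemia. It had log2 values of 9.27, 8.93 and 8.84 with PMA, against 9.35, 9.78 and 9.82 in unstimulated cells. All PMA arrays lay below all unstimulated arrays, with the closest pair the replicate 1 arrays. The means were 9.01 ± 0.22 with PMA and 9.65 ± 0.26 unstimulated, a log2 fold change of -0.64 ± 0.16 (1.55-fold lower, adjusted p = 0.0240 in limma). The call was lost without PMA replicate 2 (0.0757), PMA replicate 3 (0.0507), unstimulated replicate 2 (0.0917) or unstimulated replicate 3 (0.0898) and with cyclic loess (0.0509), and held without PMA replicate 3 and unstimulated replicate 1 together (-0.70, 0.00185).

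KLF2 had 7.14, 7.01 and 7.01 with PMA, against 7.09, 7.65 and 7.42 in unstimulated cells. Unstimulated replicate 1 lay within the PMA range and the other unstimulated arrays above it. The log2 fold change was -0.33 ± 0.15 with a 95% interval from -0.67 to 0.0046 (adjusted p = 0.142), and KLF2 did not pass. It passed without unstimulated replicate 1 (-0.48, adjusted p = 0.0194), and without both arrays noted above (-0.46, adjusted p = 0.0141). Unstimulated replicate 1 was its lowest unstimulated array, so leaving that array out lowers the fold change by construction.

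KLF4 had 6.61, 6.40 and 7.77 with PMA, against 6.77, 7.34 and 7.55 in unstimulated cells. PMA replicate 3 was the highest of all 6 arrays, and the other PMA arrays lay below every unstimulated array. The log2 fold change was -0.29 ± 0.36 (95% interval -1.12 to 0.54, adjusted p = 0.634). Without PMA replicate 3 it was -0.71 (adjusted p = 0.0436), and without both arrays -0.94 (adjusted p = 0.000193). Both fits drop the highest PMA array, and the latter also drops the lowest unstimulated array. They lower the fold change by construction and are no separate evidence of a fall.

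KLF6, known as an early-response gene of injured liver, had 7.88, 7.96 and 8.50 with PMA, against 6.59, 8.09 and 7.85 in unstimulated cells. Unstimulated replicate 1 was far below the other 5 arrays, which overlapped. Its log2 fold change was 0.61 ± 0.37 (95% interval -0.26 to 1.47, adjusted p = 0.296). Without both arrays it was -0.05 ± 0.12 (adjusted p = 0.815), and it passed in no fit that left out an array.

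Among the members that recruit SIN3A, KLF9 rose. KLF9 is known as a gene induced by glucocorticoid and thyroid hormone. It had 7.19, 7.33 and 7.59 with PMA, against 6.85, 6.93 and 6.92 in unstimulated cells. All PMA arrays lay above all unstimulated arrays, which were close to each other. The means were 7.37 ± 0.20 with PMA and 6.90 ± 0.05 unstimulated, a log2 fold change of 0.47 ± 0.12 (1.38-fold higher, adjusted p = 0.0211 in limma). The call was lost without PMA replicate 2 (0.0519), unstimulated replicate 1 (0.0500), unstimulated replicate 2 (0.0597) or unstimulated replicate 3 (0.0619). Without PMA replicate 3 and unstimulated replicate 1 together it held, at 0.33 (adjusted p = 0.0418).

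KLF11 and KLF10 are both known as genes induced by TGF-beta. KLF11 had 8.13, 8.06 and 8.73 with PMA, against 8.61, 8.95 and 8.91 in unstimulated cells. PMA replicate 3 lay above unstimulated replicate 1, and otherwise the PMA arrays were lower. The log2 fold change was -0.51 ± 0.19 (95% interval -0.95 to -0.08, unadjusted), with an adjusted p of 0.0860, and KLF11 did not pass. It passed without PMA replicate 3 (-0.73, adjusted p = 0.00470) and without both arrays (-0.83, adjusted p = 0.000160). The arrays left out were its highest PMA array and its lowest unstimulated array, so these fits lower the fold change by construction.

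KLF10 had 8.90, 8.77 and 9.04 with PMA, against 8.63, 9.18 and 9.15 in unstimulated cells. The PMA arrays lay between unstimulated replicate 1 and the other unstimulated arrays. Its log2 fold change was -0.09 ± 0.16 (95% interval -0.46 to 0.29, adjusted p = 0.768), and without both arrays it was -0.33 (adjusted p = 0.0417). That fit drops its highest PMA array and its lowest unstimulated array, which lowers the fold change by construction.

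KLF13, known as an activator of the chemokine gene CCL5 in T lymphocytes, had 8.53, 8.48 and 8.81 with PMA, against 8.35, 8.74 and 8.67 in unstimulated cells. The groups overlapped, with a log2 fold change of 0.02 ± 0.14 (95% interval -0.30 to 0.34, adjusted p = 0.942). KLF13 was the only member with 2 probe sets. The dimmer one had 5.26, 5.21 and 5.10 with PMA, against 4.86, 5.21 and 5.31 in unstimulated cells, and also overlapped.

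Among the members that recruit CtBP, neither passed. KLF3, known as a repressor in erythroid, B and fat cells, had 8.93, 8.28 and 9.30 with PMA, against 7.96, 8.28 and 8.19 in unstimulated cells. The PMA arrays were higher, but PMA replicate 2 was nearly level with unstimulated replicate 2. The log2 fold change was 0.69 ± 0.24 (95% interval 0.14 to 1.25, unadjusted), with an adjusted p of 0.0704. KLF3 passed without PMA replicate 2, its lowest PMA array (0.97, adjusted p = 0.00599), and with each array centred on its median (0.78, adjusted p = 0.0440). Without both arrays noted above it was 0.37 (adjusted p = 0.149).

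KLF12, known as a repressor of the AP-2alpha gene, had 7.51, 7.55 and 6.78 with PMA, against 7.15, 7.55 and 7.55 in unstimulated cells. PMA replicate 3 and unstimulated replicate 1 were low and the other 4 arrays were nearly level. Its log2 fold change was -0.14 ± 0.22 (95% interval -0.65 to 0.37, adjusted p = 0.717), and without both arrays -0.02 (adjusted p = 0.901).

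**Figure D2:**
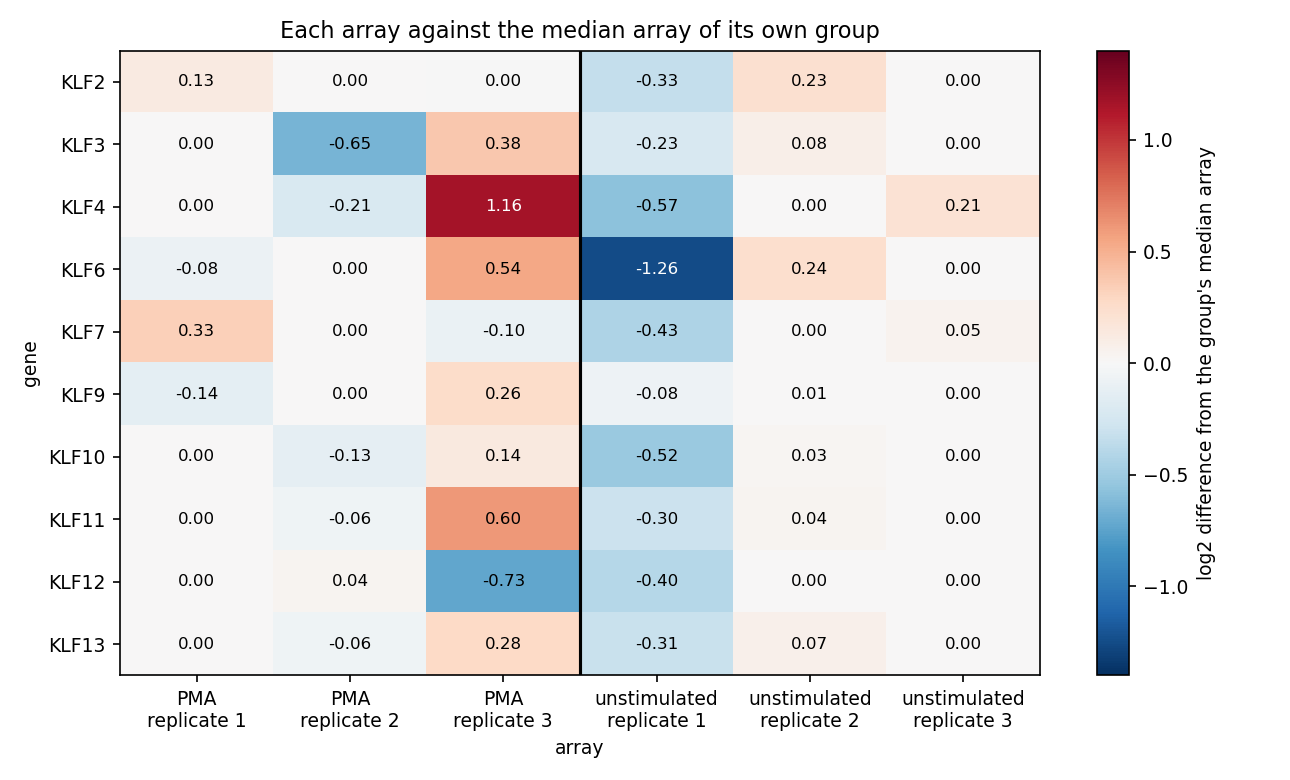
Difference of each array from the median array of its own group (log2 units, colour and printed value) for the 10 KLF genes, PMA arrays at left and unstimulated arrays at right. Unstimulated replicate 1 is below its group's median array for all 10 genes, by up to 1.26 for KLF6, and PMA replicate 3 is above its group's median array for 7, by up to 1.16 for KLF4.

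The spread within groups was shared between members. PMA replicate 3 was the highest PMA array for 7 of 10 KLF genes, against 38.9% of all genes, and its median difference from the mean of the other PMA arrays was 0.32 over the members and 0.01 over all genes. Unstimulated replicate 1 was the lowest unstimulated array for all 10 KLF genes, against 35.8% of all genes. Its median difference from the mean of the other unstimulated arrays was -0.42 over the members and 0.01 over all genes. Low values of unstimulated replicate 1 were not confined to these KLF genes. It was lowest, or tied for lowest (SP4), in 7 of 8 SP factors, with a median difference of -0.14. PMA replicate 3 was highest for 2 of the 8 SP factors (median difference -0.0058). Neither part of the pattern was seen in the other 7 KLF genes. There unstimulated replicate 1 was lowest for 1 (median difference 0.06) and PMA replicate 3 highest for 2. Unstimulated replicate 1 was lowest in 5 of 6 macrophage markers (median difference -0.50). In lists described below it was lowest in 4 of 6 glucocorticoid response genes (-0.49) and 6 of 9 ERK5 route genes (-0.34). It was lowest in 8 of 11 TGF-beta genes (-0.14), 7 of 14 cofactors (-0.0011) and 3 of 9 candidate targets of KLF4 and KLF6 (0.21). The pattern was noticed in these data, and what set these arrays apart was not tested.

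With PMA replicate 3 and unstimulated replicate 1 both left out, 6 of 10 KLF genes passed, where 34.3% of all genes did. KLF2, KLF4, KLF7, KLF10 and KLF11 were lower (5 of 10, where 16.8% of all genes passed as lower) and KLF9 was higher (1 of 10, where 17.4% passed as higher). The values -0.94 for KLF4 and -0.83 for KLF11 were the largest. Unstimulated replicate 1 was the lowest of its group for all 10 members, and PMA replicate 3 the highest of its group for 7. Leaving both out thus moves the fold changes of those 7 downwards by construction. All genes lacked this pattern, so their shares are not a like comparison, and the counts are no separate evidence of a fall. With single arrays left out the background changed too. Without PMA replicate 3, 3 members passed, KLF4, KLF9 and KLF11 (27.4% of all genes), and without unstimulated replicate 1, 2 passed, KLF2 and KLF7 (25.9%). Without PMA replicate 1, KLF7 and KLF9 passed (18.0%), and without PMA replicate 2, KLF3 alone did (20.5%). Without unstimulated replicate 2 (19.6%) or unstimulated replicate 3 (19.6%) none passed in limma, with 3 members at an unadjusted p under 0.05 in each of these fits. The set of KLF genes called therefore differed with the arrays used. The sign of the log2 fold change was the same in all 20 alternative fits for KLF2, KLF3, KLF4, KLF7, KLF9 and KLF11, but several of these fits change only the test and not the fold change.

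**Figure D3:**
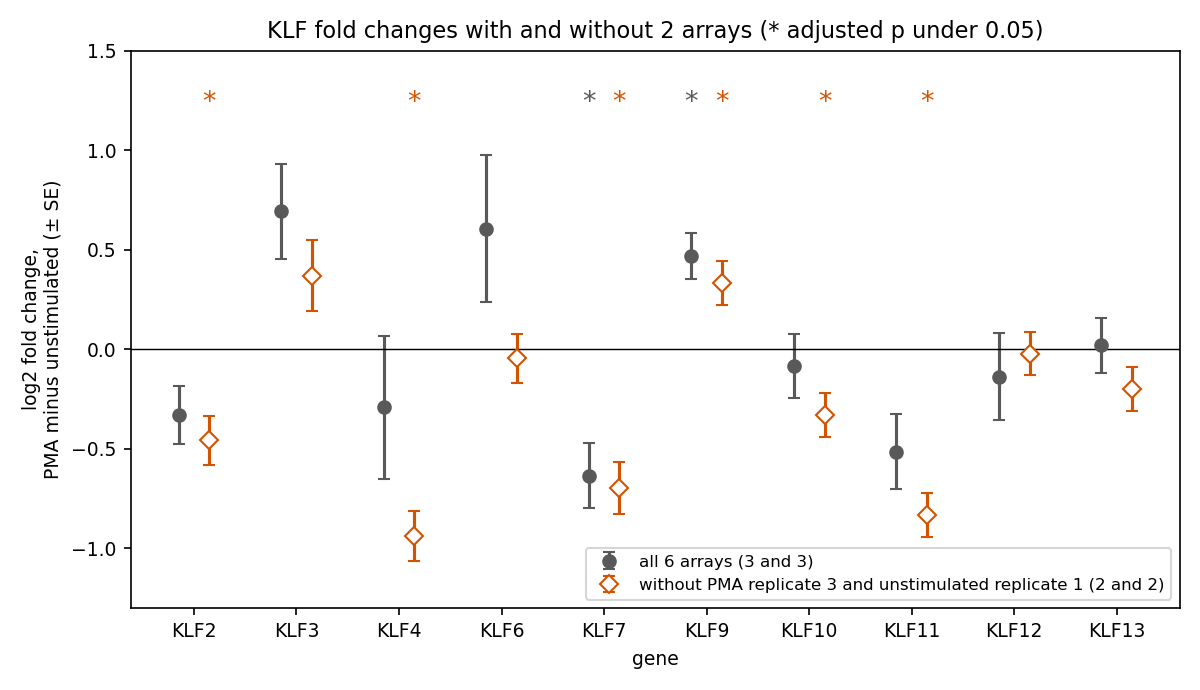
Log2 fold change of each KLF gene, PMA minus unstimulated, ± standard error of the limma fit, with all 6 arrays (filled circles) and without PMA replicate 3 and unstimulated replicate 1 (open diamonds). Asterisks mark an adjusted p under 0.05 in the fit of that colour: 2 genes with all arrays and 6 without the pair of arrays.

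The remaining measured KLF genes and the related SP factors also differed by under 2-fold. Of 7 other KLF genes, KLF5 rose and KLF8 fell, 2 of 7 where 26.4% of all genes passed, and without both arrays noted above the same 2 passed (KLF5 0.61, adjusted p = 0.00868; KLF8 -0.61, adjusted p = 0.00203). KLF5, known from epithelial and smooth muscle cells, had 7.45, 7.90 and 7.43 with PMA, against 7.09, 7.00 and 7.12 in unstimulated cells (0.52 ± 0.14, adjusted p = 0.0265). The groups did not overlap, but the call was lost without unstimulated replicate 1 (0.0509), unstimulated replicate 2 (0.0928) or unstimulated replicate 3 (0.0676). KLF8, a CtBP-recruiting repressor, had 5.02, 4.83 and 4.74 with PMA, against 5.51, 5.52 and 5.56 in unstimulated cells (-0.66 ± 0.10, adjusted p = 0.00227). Its groups did not overlap and its call held without any 1 array, but its PMA values were near the arrays' lower quartiles, so the size of its fall is uncertain. KLF1, KLF14, KLF15, KLF16 and KLF17 did not pass, with log2 fold changes from -0.15 to 0.15. None of the 8 SP factors measured passed in limma (SP4 alone at an unadjusted p under 0.05), and none did without both arrays or in a gene-wise test without shared variance (1 unadjusted in each). Their log2 fold changes ran from -0.21 to 0.06.

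**Figure D4:**
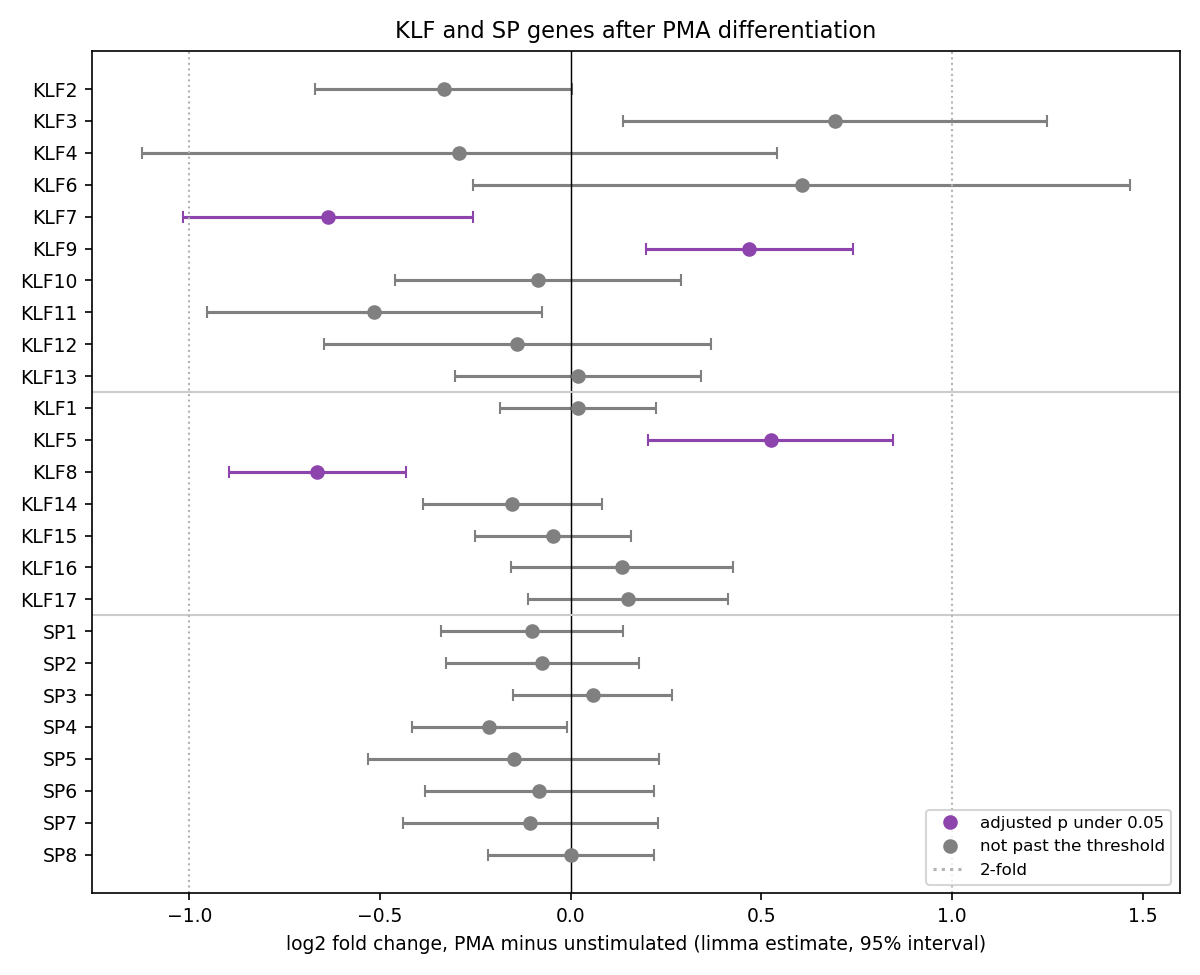
Log2 fold change, PMA minus unstimulated, with its 95% interval from the limma fit, for the 10 KLF members (top), the other KLF genes (middle) and the SP factors (bottom). Purple points passed an adjusted p of 0.05, which were KLF7, KLF9, KLF5 and KLF8, and dotted lines mark a 2-fold change.

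Several partners through which KLF proteins act were lower with PMA. Of 14 cofactors and ubiquitin ligases of KLF proteins, 6 fell and none rose, where 13.2% of all genes passed as lower, and the list's median log2 fold change was -0.25. With each array centred on its median 4 fell and 2 rose, and with cyclic loess 5 fell and 1 rose. With genes below the median level left out, all 14 stayed in and 6 fell. There 39.5% of the genes kept passed in either direction. CTBP2, a CtBP co-repressor recruited by KLF3, KLF8 and KLF12, had 7.53, 7.38 and 7.74 with PMA, against 8.49, 8.22 and 8.27 in unstimulated cells (-0.78 ± 0.12, adjusted p = 0.00304). SIN3A, the co-repressor recruited by KLF9, KLF10, KLF11 and KLF13, had 8.83, 8.81 and 8.83 with PMA, against 9.31, 9.32 and 9.44 in unstimulated cells (-0.53 ± 0.09, adjusted p = 0.00302). The groups did not overlap for either gene. The related co-repressor genes CTBP1 (-0.20 ± 0.10, adjusted p = 0.213) and SIN3B (0.22 ± 0.08, adjusted p = 0.0932) did not pass in limma. RCOR1, a subunit of the CoREST co-repressor complex, fell by 0.72 on the log2 scale (adjusted p = 0.00150). Without PMA replicate 1, 3 of the 14 fell (18.0% of all genes passed in either direction), and without PMA replicate 3 and unstimulated replicate 1 together, 7 did (16.8% of all genes lower).

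The ERK5 kinase route, which induces KLF2 through MEF2 factors in endothelial cells, had 4 of 9 genes higher and 1 lower, where 13.2% of all genes passed in each direction. The kinases MAPK7, which is ERK5 itself (-0.36 ± 0.13, adjusted p = 0.0846), and MAP2K5, which activates it (-0.37 ± 0.15, adjusted p = 0.122), did not pass. Without both arrays MAP2K5 fell (-0.57, adjusted p = 0.00260), and the counts were 4 higher and 2 lower (17.4% and 16.8% of all genes). With genes below the median level left out, all 9 stayed in, with 4 higher and 1 lower. There 39.5% of the genes kept passed in either direction. MEF2A had 10.10, 10.06 and 10.45 with PMA, against 8.12, 8.45 and 8.48 in unstimulated cells (1.86 ± 0.14, adjusted p = 9.22e-05). Its PMA arrays all lay above its unstimulated arrays by over 1.5 log2 units. KLF2, whose promoter letters hold the MEF2 match shown above, did not pass with all arrays. Whether MEF2 factors act on KLF2 in these cells was not tested. MEF2D fell (-0.52 ± 0.12, adjusted p = 0.0156), a call lost without PMA replicate 2 (0.0506). MEF2C, at 11.27 ± 0.21 with PMA and 10.98 ± 0.36 unstimulated, did not pass (0.29 ± 0.19, adjusted p = 0.328 in limma). HDAC7, a class IIa deacetylase that binds MEF2 factors, rose (1.02 ± 0.09, adjusted p = 0.000164), as did the kinase MAP3K2 (0.98 ± 0.15, adjusted p = 0.00211).

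TGF-beta signalling genes, upstream of KLF10 and KLF11, changed in both directions: 6 of 11 measured rose and 3 fell, where 13.2% of all genes passed in each direction, with a median log2 fold change of 1.08. The ligand TGFB1 had 10.83, 10.51 and 10.50 with PMA, against 8.93, 9.08 and 9.03 in unstimulated cells (1.60 ± 0.12, adjusted p = 6.74e-05). The feedback inhibitors SKIL (1.68 ± 0.17) and SMAD7 (1.13 ± 0.20) also rose. SMAD3, a transcription factor activated by TGF-beta receptors, fell (-1.27 ± 0.17, adjusted p = 0.00136), as did the co-repressor SKI (-0.79 ± 0.17, adjusted p = 0.0114) and the shared SMAD partner SMAD4 (-0.31 ± 0.09, adjusted p = 0.0384). The SMAD4 call was lost in every fit that left out an array except that without unstimulated replicate 1 (adjusted p up to 0.127), with each array centred on its median (0.127), with cyclic loess (0.104) and without both arrays (0.0505). Without both arrays 6 rose and 2 fell, where 17.4% of all genes passed as higher and 16.8% as lower. With genes below the median level left out, all 11 stayed in, and 6 rose and 3 fell. There 39.5% of the genes kept passed in either direction.

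Glucocorticoid response genes, which are regulated by the same hormone as KLF9, had 3 of 6 measured higher and 1 lower, where 13.2% of all genes passed in each direction. The kinase SGK1 had 9.47, 9.67 and 8.96 with PMA, against 5.61, 6.20 and 6.32 in unstimulated cells (3.32 ± 0.23, adjusted p = 5.79e-05), and the groups lay far apart. The receptor gene NR3C1 rose (0.97 ± 0.16, adjusted p = 0.00331), as did the clock gene PER1 (0.33 ± 0.10, adjusted p = 0.0446). TSC22D3, a glucocorticoid-induced anti-inflammatory gene, fell (-1.66 ± 0.48, adjusted p = 0.0379). It had 7.24, 7.20 and 7.24 with PMA, against 7.57, 9.45 and 9.63 in unstimulated cells, so that unstimulated replicate 1 was again the low array of its group. Without that array its log2 fold change was -2.31 (adjusted p = 2.68e-05), and without both arrays it was -2.32. With cyclic loess its call was lost (0.0563). Without PMA replicate 1, PMA replicate 3, unstimulated replicate 2 or unstimulated replicate 3, 2 of the 6 genes passed, both higher (18.0%, 27.4%, 19.6% and 19.6% of all genes in these fits), and TSC22D3 did not pass without PMA replicate 2 either (0.0921). PER1 did not pass in those 4 fits (adjusted p up to 0.140), nor without both arrays (0.0533), where 2 of 6 were higher and 1 lower (17.4% and 16.8% of all genes).

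Candidate targets of the KLF proteins changed more often upwards. They were listed from general knowledge of several cell types and not from binding in THP-1 cells. The lists do not separate genes that a KLF protein activates from genes that it represses. The direction counts therefore do not measure KLF activity. As for the other lists, earlier results of these data were known when they were chosen, so the counts only describe the list. Of 9 measured for KLF2, 4 rose and 1 fell, where 13.2% of all genes passed in each direction, and the call count was 3 without unstimulated replicate 2 (19.6% of all genes). Without both arrays 5 rose and 1 fell, where 17.4% of all genes passed as higher and 16.8% as lower. CDKN1A, the cyclin-dependent kinase inhibitor p21, rose (2.43 ± 0.24, adjusted p = 0.000303), as did the plasminogen activator PLAU (2.22 ± 0.35) and the integrin chain ITGB7 (2.06 ± 0.16). NOS3, the endothelial nitric oxide synthase, fell (-0.37 ± 0.09, adjusted p = 0.0180), a call lost without PMA replicate 2 (0.0698) or unstimulated replicate 2 (0.0602), with each array centred on its median (0.0650) and with cyclic loess (0.0530). Of 9 measured for KLF4 and KLF6, 6 rose and 1 fell, where again 13.2% of all genes passed in each direction. Without both arrays 6 rose and none fell, where 17.4% of all genes passed as higher and 16.8% as lower. CD14, counted here, is also one of the macrophage markers above. The G1 cyclin CCND1 had 11.46, 11.56 and 11.05 with PMA, against 7.06, 7.28 and 7.35 in unstimulated cells (4.13 ± 0.15, adjusted p = 3.35e-06). The transglutaminase TGM2 rose (3.47 ± 0.39), as did the lipopolysaccharide co-receptor CD14 (2.46 ± 0.53, against 1.74 without unstimulated replicate 1 and 1.80 without both arrays), and the polyamine enzyme ODC1 fell (-0.57 ± 0.16, adjusted p = 0.0299). The ODC1 call was lost in every fit that left out an array except that without unstimulated replicate 2 (adjusted p up to 0.0845), with each array centred on its median (0.0730) and without both arrays (0.0575). From the cofactors onward, each list held genes with larger differences than any KLF gene had with all 6 arrays, and no relation between KLF levels and these genes was tested.

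**Figure D5:**
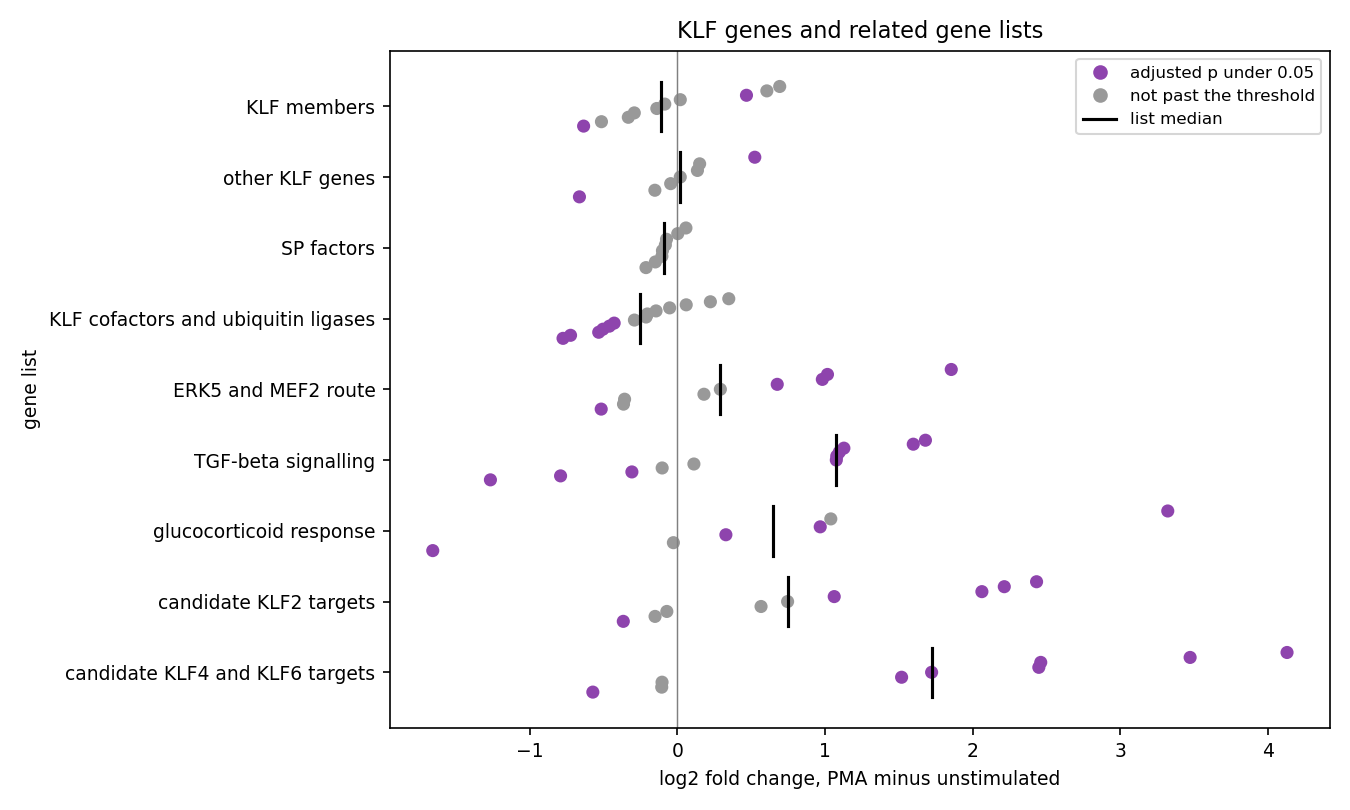
Log2 fold change, PMA minus unstimulated, of each measured gene in the KLF group and 8 related lists. Points are genes (purple: adjusted p under 0.05), and vertical bars are list medians, which run from -0.25 for the cofactors to 1.72 for the candidate targets of KLF4 and KLF6.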

How the data were processed

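Gene expression of 6 THP-1 samples was measured on Affymetrix arrays. The authors' deposited values are log2 signals of probe sets. They were made with RMA and Partek, per the submitters' processing notes (versions: not given in the sources used here). This method makes arrays alike in distribution and shrinks differences of dim probe sets. Of 33297 probe sets, 19460 had 1 symbol in the platform annotation, and 19429 of these matched the current gene table (GRCh38.p14). The probe set with the highest mean over 6 arrays stood for a gene. A probe set sums over transcript isoforms. Groups came from the titles. The comparison used limma 3.58.1 (R 4.3.3) with no term beside the group and 7.71 degrees of freedom in all. P-values were adjusted by Benjamini-Hochberg over 18417 genes, with a threshold of 0.05. The 10 members and the gene lists were chosen with earlier results of these data known. All other KLF genes were named whatever their values. In each further list, the genes named were up to 3 of the highest and 3 of the lowest log2 fold changes past the threshold. The marker genes, SP4, CTBP1, SIN3B, MAPK7, MAP2K5 and MEF2C were also named, after their values were seen. The fit was tested on simulated data. Alternatives covered normalization, dim genes, probe sets, variance, a replicate block, thresholds and left-out arrays. Figures used matplotlib 3.10.9.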

Additional observations from a re-analysis of the deposited data

How the results depend on the processing

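The number of KLF genes past the threshold was 2 with all arrays and ranged from 0 to 3 when any 1 array was left out. It was 1 with cyclic loess (KLF9; 26.7% of all genes), 3 with each array centred on its median (25.6%), 4 with array quality weights (KLF2, KLF7, KLF9 and KLF11; 33.9%), and 6 without PMA replicate 3 and unstimulated replicate 1 together (34.3%). It was 0 in a gene-wise test without shared variance (2 unadjusted; 15.4% of all genes passed), 0 at an adjusted p of 0.01 (15.3%), where limma gave 4 at an unadjusted p under 0.05, and 0 with treat against a 1.5-fold change (0 unadjusted; 6.11% of all genes). Whether replicate numbers pair the arrays could not be settled from so few arrays. Deviations of same-numbered arrays from their group means correlated at 0.18, -0.02 and 0.05. With the replicate block 1 KLF gene passed (KLF9; 25.7% of all genes), and KLF7 had an adjusted p of 0.0540. Genes of the other lists past the threshold numbered 38 of 73 (26.4% of all genes), and 30 to 37 with any 1 array left out (18.0% to 27.4%). They numbered 25 in the gene-wise test (15.4%), 24 at 0.01 (15.3%) and 15 with treat (6.11%). These lists were chosen with earlier results known, so the counts only describe them. With genes below the median level left out, 35 of the 57 list genes kept passed, where 39.5% of all genes kept did. Sign changes touched only genes that did not pass: KLF6 was -0.046 and KLF13 -0.20 without both arrays, and KLF13 was -0.092 with array weights. With any 1 array left out, KLF10 ran from -0.27 to 0.011, KLF12 from -0.27 to 0.11, KLF13 from -0.097 to 0.096 and KLF1 from -0.024 to 0.045. KLF15 was 0.036 with quantile normalization repeated, 0.040 with median centring, 0.043 with cyclic loess and 0.0022 without both arrays. The cause of these changes was not tested. With 3 arrays a group, the intervals of 6 members spanned 0.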
